A study of Homo sapiens with 4 samples.

Results

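The 37 genes described here encode parts of the pathway that runs from PI3K through AKT to mTOR: the PI3K subunits, the phosphatases that remove lipid and protein phosphates, AKT with its activator and some substrates, the TSC complex, the mTOR complexes, the S6 kinases, and the RAG GTPases with the amino acid sensors that control them. They were chosen by gene symbol, and all 37 were found among the 64252 gene IDs of the count table. RNA-seq was run on Jurkat, an established human line of T-ALL cells (leukemia of immature T cells), transfected with a short hairpin RNA of scrambled sequence (sh-Scb, 2 libraries) or with a hairpin against the transcription factor SOX4 (sh-SOX4, 2 libraries). The labels give no other treatment, no time after transfection, and no statement on whether the libraries of a group came from separate cultures, so a p-value here reflects the spread among these 4 samples alone, and that spread may be technical.

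Class I PI3K is a lipid kinase made of a catalytic and a regulatory subunit. It makes the membrane lipid PIP3, which brings AKT to its activator PDPK1, and phosphatases such as SHIP1 (gene INPP5D) remove that lipid. AKT restrains the TSC complex, an inhibitor of the GTPase RHEB, and RHEB turns on mTOR complex 1 (mTORC1) at the lysosome when the RAG GTPases report amino acids. A second complex, mTORC2, phosphorylates AKT itself. Jurkat cells are known for AKT that is active without stimulation. All of these steps are set largely by phosphorylation and lipid levels, which RNA counts do not measure.

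The libraries held 29093287 to 36636219 counts, of which the 37 genes took 0.255% to 0.263%. Levels below are in CPM, counts scaled to the depth of the library, with the TMM factor that corrects for its composition, and 3 counts correspond to 0.0794 to 0.101 CPM. Fold changes are sh-SOX4 over sh-Scb, and a gene is said to have risen or fallen where edgeR's quasi-likelihood test gave a Benjamini-Hochberg adjusted p under 0.05 over the 19897 gene IDs tested. SOX4 itself fell from 271 and 277 CPM to 191 and 199 CPM, or 71.1% of control, so the comparison is one of partial reduction. Of 14 T cell markers none was at 0 counts in all libraries, and their summed level was 1891 to 1940 CPM in sh-Scb and 2238 to 2319 CPM in sh-SOX4. Of these markers 8 rose, while CD247, CD5 and PTCRA fell, PTCRA from a mean of 1.27 CPM to 0.328 CPM. TRBC1 was at 154 and 115 CPM in sh-Scb and at 65.2 and 142 CPM in sh-SOX4. The summed level of 10 myeloid markers was 20.8 to 23.8 CPM and 43.2 to 43.3 CPM in the same order, with LYZ at 0 throughout. Most of that difference was S100A9, at a mean of 4.22 CPM and 23.2 CPM, while CD68 fell from 6.70 to 3.96 CPM. The summed level of 8 B cell markers was 70.8 to 72.7 CPM in sh-Scb and 17.4 to 19.2 CPM in sh-SOX4, most of it CD79A in the controls. Summed NK, erythroid, and fibroblast and epithelial markers stayed between 1.61 and 48.7 CPM, with HBB and COL1A2 at 0 in all 4 libraries. The share of counts from the mitochondrial genome was 4.75% to 4.81% in sh-Scb and 6.17% to 6.23% in sh-SOX4. The part of these shifts in the results below was not tested.

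Of the 37 genes, 11 rose and 5 fell. This is 43.2% called, beside 44.1% of all gene IDs tested (23.2% higher and 20.9% lower). Among the 8906 tested IDs with a sh-Scb mean between 13.3 and 199.7 CPM, the range of 35 of the 37 genes, 63.1% were called, beside 16 of these 35. The median log2 fold change of the 37 genes was 0.04, and that of all tested IDs was -0.01. A log2 change of at least 1 in size was seen in 1 called member, PHLPP1, while 9.45% of all tested IDs were called with such a change. The calls included 5 of 6 mTOR complex subunits and none of the 3 genes of the TSC complex and RHEB, the 2 S6 kinases or the 3 RAG GTPases. With scaling to library totals alone, 10 genes rose and 10 fell (54.1% called, beside 44.7% of all tested IDs), so small changes depend on the scaling. The calls over all tested IDs shifted too, with 40.8% of them higher under library totals and 52.5% with TMM.

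**Figure D1:**
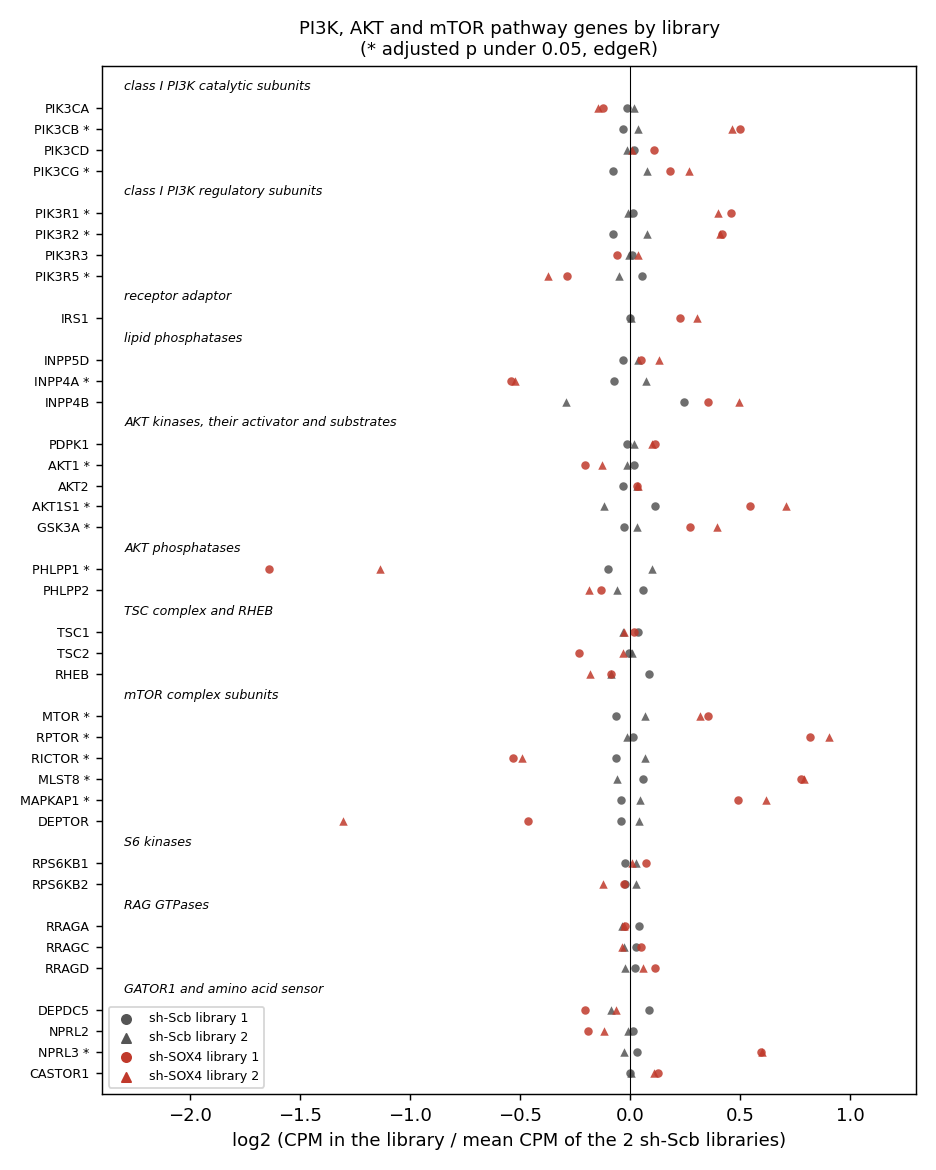
Each row is a gene and each point a library, placed at the log2 ratio of its CPM to the mean of the 2 sh-Scb libraries; circles are replicate 1 and triangles replicate 2, grey is sh-Scb and red sh-SOX4, and asterisks mark an adjusted p under 0.05. RPTOR, MLST8, AKT1S1 and NPRL3 lie to the right and PHLPP1, INPP4A and RICTOR to the left of the control points, while the TSC, S6 kinase and RAG genes lie close to 0.

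Of the 6 genes listed as mTOR complex subunits, 4 rose and 1 fell. The mTORC1 scaffold gene rose and the mTORC2 scaffold gene fell. RPTOR, which encodes the scaffold raptor that recruits mTORC1 substrates, was at 46.6 and 45.8 CPM in sh-Scb and 81.4 and 86.4 CPM in sh-SOX4, a log2 fold change of 0.86 (SE 0.060) with an edgeR adjusted p of 2.37e-06. RICTOR, the scaffold of mTORC2, went from 119 and 130 CPM to 85.9 and 88.3 CPM, a log2 fold change of -0.51 (SE 0.057) with an edgeR adjusted p of 5.62e-05. In each case the groups did not overlap, and the gap between groups was wider than the gap between libraries of a group. Groups without overlap were common, here and below. Of the 19897 tested IDs, 7220 were higher in both sh-SOX4 libraries than in either control, and 7290 were lower. Among the 37 members these numbers were 17 and 12. RPTOR lies on chromosome 17 from 80544819 to 80966371 and RICTOR on chromosome 5 from 38937919 to 39074408 (GRCh38).

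The kinase and its partner in both complexes rose. MTOR was at 141 and 155 CPM in sh-Scb and 189 and 184 CPM in sh-SOX4, with a log2 fold change of 0.33 (SE 0.054) and an edgeR adjusted p of 0.000609. MLST8, a small beta-propeller subunit that binds the kinase domain, rose from 28.5 and 26.3 CPM to 46.9 and 47.3 CPM, a log2 fold change of 0.78 (SE 0.081) with an edgeR adjusted p of 3.43e-05. BRICD5, whose exons overlap 3.79% of MLST8 exonic bases, was counted 661 and 548 times under sh-Scb and 243 and 302 times under sh-SOX4, the opposite direction to MLST8. MAPKAP1, which encodes the mTORC2 subunit SIN1, rose as well, from 56.1 and 59.6 CPM to 81.3 and 88.8 CPM (log2 fold change 0.56, SE 0.064, edgeR adjusted p = 6.88e-05). The mTORC2 genes RICTOR and MAPKAP1 therefore differed in direction. AKT1S1 encodes PRAS40, an inhibitory mTORC1 subunit and AKT substrate, and rose from 14.3 and 12.2 CPM to 19.4 and 21.7 CPM (log2 fold change 0.63, SE 0.12, edgeR adjusted p = 0.00204).

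DEPTOR, an inhibitor found in both complexes, was hardly expressed. It was counted 64 and 54 times in the control libraries and 40 and 21 times with the SOX4 hairpin. Its log2 fold change of -0.82 had a 95% interval of -1.62 to -0.02 before adjustment and an edgeR adjusted p of 0.0917. The sh-SOX4 libraries were both lower but differed from each other. Without sh-SOX4 replicate 1 the log2 fold change was -1.29 (adjusted p = 0.0296), and without sh-SOX4 replicate 2 it was -0.47 (adjusted p = 0.402), so its size rests on which of these libraries is used.

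**Figure D2:**
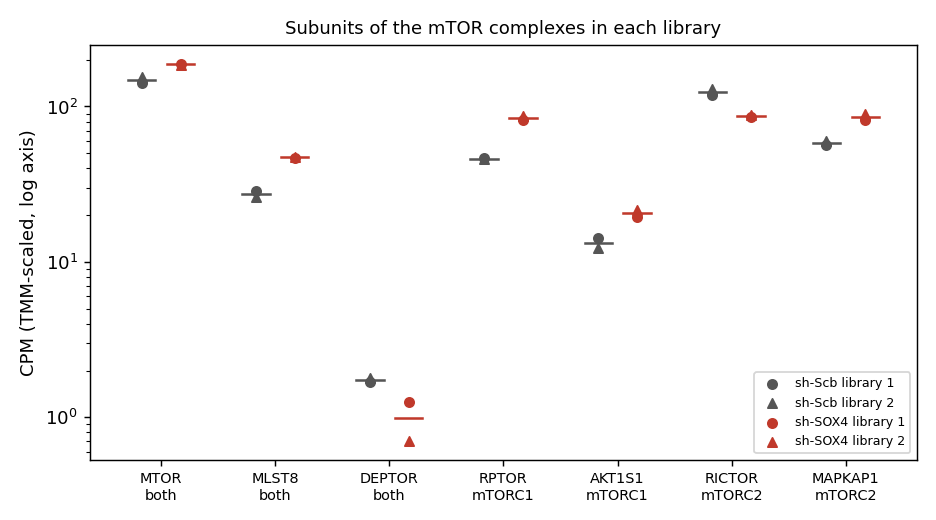
CPM of the subunits of the mTOR complexes in the 4 libraries on a log axis; bars are the means of 2 libraries, and the line under each name gives the complex the protein belongs to. RPTOR and RICTOR lie apart in sh-Scb (46.2 and 124 CPM) and together in sh-SOX4 (83.9 and 87.1 CPM), and DEPTOR is the lowest of the 7 genes in every library.

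A ratio of 2 genes counted in the same library does not depend on how libraries are scaled. The pairs were chosen after values had been seen, so the ratios are descriptions, and with 2 libraries against 2 an exact two-sided permutation test cannot go below p = 0.333. RPTOR counts divided by RICTOR counts were 0.393 and 0.353 in the controls and 0.948 and 0.978 with the SOX4 hairpin, a 2.58-fold shift of the mean. For MLST8 to MTOR the ratios were 0.202 and 0.170, then 0.248 and 0.257. Both ratios were higher in each sh-SOX4 library than in either control.

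Per kilobase of annotated exon, RICTOR stood above RPTOR in sh-Scb, with 9.16 ± 0.588 against 4.48 ± 0.0604 CPM per kilobase (SD, n = 2). In sh-SOX4 the order was turned, with 6.43 ± 0.128 for RICTOR and 8.14 ± 0.34 for RPTOR. MTOR itself stood higher than either, at 12.2 ± 0.788 and 15.4 ± 0.278 CPM per kilobase. These lengths count every annotated exon once, and transcripts that use fewer exons would give higher values.

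Among the class I catalytic subunits, p110beta was the one with the clearest rise. PIK3CB, which encodes it, was at 43.9 and 45.9 CPM in sh-Scb and 63.4 and 61.8 CPM in sh-SOX4 (log2 fold change 0.48, SE 0.064, edgeR adjusted p = 0.000178). PIK3CG, the gene of the p110gamma subunit that couples to G protein-coupled receptors, rose from 43.7 and 48.7 CPM to 52.4 and 55.6 CPM (log2 fold change 0.23, SE 0.076, edgeR adjusted p = 0.0344). That call was lost in 6 of 13 alternative settings, with adjusted p-values of 0.182 without sh-Scb replicate 1 and 0.167 without sh-SOX4 replicate 2.

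The ubiquitous p110alpha and the leukocyte p110delta did not pass. PIK3CA (p110alpha) was at 76.4 and 78.1 CPM in sh-Scb and 70.9 and 69.8 CPM in sh-SOX4, with a 95% interval of the log2 fold change from -0.25 to -0.02 and an edgeR adjusted p of 0.0658. It passed under library totals (adjusted p = 0.0053). PIK3CD (p110delta) was at 62.7 and 61.2 CPM, then 66.7 and 62.2 CPM, with an interval of -0.08 to 0.20 (edgeR adjusted p = 0.478). The PIK3CA groups did not overlap, while those of PIK3CD did. The ratio of PIK3CB to PIK3CA counts was 0.574 and 0.588 in the controls and 0.894 and 0.885 with the SOX4 hairpin, close together within each group. Per kilobase, PIK3CB had the lowest level of the 4 catalytic genes in sh-Scb (5.72 ± 0.186 CPM per kilobase, SD, n = 2) and PIK3CD the highest (9.78 ± 0.168). In sh-SOX4 PIK3CA was the lowest (7.41 ± 0.0824), with PIK3CB just above it (7.97 ± 0.144). In sh-Scb, PIK3CA (8.14 ± 0.122) and PIK3CG (7.79 ± 0.594) differed by less than the spread of PIK3CG.

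The regulatory subunits went different ways. PIK3R1, the gene of p85alpha, which holds the catalytic subunit inactive until a receptor is engaged, rose from 201 and 198 CPM to 274 and 263 CPM (log2 fold change 0.43, SE 0.044, edgeR adjusted p = 3.15e-05). PIK3R2, the gene of p85beta, rose from 35.3 and 39.2 CPM to 49.8 and 49.4 CPM (log2 fold change 0.41, SE 0.078, edgeR adjusted p = 0.00173). The p85 genes moved by nearly the same factor, and the ratio of PIK3R2 to PIK3R1 counts was 0.176 and 0.198 in the controls and 0.182 and 0.188 with the SOX4 hairpin. Another annotated gene, AC007192.1, covers 87.2% of PIK3R2 exonic bases but had only 6 counts in 1 library and 0 in the others. PIK3R5 encodes p101, the partner of p110gamma, and fell from 43.1 and 40.0 CPM to 34.0 and 32.0 CPM (log2 fold change -0.33, SE 0.082, edgeR adjusted p = 0.00813). Its ratio to PIK3CG went from 0.985 and 0.822 to 0.648 and 0.576. PIK3R3, the p55gamma gene, was at 133 and 132 CPM in sh-Scb and 126 and 135 CPM in sh-SOX4, so its groups overlapped, with an interval of -0.13 to 0.10 (edgeR adjusted p = 0.843). The adaptor gene IRS1, which links insulin and IGF receptors to p85, was at 18.5 and 18.5 CPM, then 21.7 and 22.9 CPM. It missed the threshold with an edgeR adjusted p of 0.0504, and its log2 fold change of 0.27 had an interval of 0.05 to 0.48.

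Of the lipid phosphatase genes, INPP4A fell. It encodes an enzyme that takes the 4-phosphate from PI(3,4)P2, the product left by SHIP enzymes, and went from 187 and 207 CPM to 135 and 137 CPM (log2 fold change -0.53, SE 0.055, edgeR adjusted p = 3.23e-05). Its relative INPP4B was near the limit of counting, counted 31 and 17 times in the controls and 28 and 29 times with the SOX4 hairpin. The interval of its log2 fold change, -0.51 to 1.33, leaves the direction undetermined at this depth (edgeR adjusted p = 0.456). INPP5D, the SHIP1 gene, was at 50.5 and 53.0 CPM and then 53.6 and 56.6 CPM, with an interval of -0.06 to 0.24 (edgeR adjusted p = 0.299). INPP4A was the most abundant of these RNAs per kilobase (14.9 ± 1.04 CPM per kilobase in sh-Scb and 10.3 ± 0.0992 in sh-SOX4, SD, n = 2), ahead of INPP5D (5.96 ± 0.198 and 6.35 ± 0.247). INPP4A counts divided by INPP5D counts were 3.71 and 3.90 in the controls and 2.52 and 2.42 with the SOX4 hairpin.

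At the level of AKT, PHLPP1 had the largest change of all 37 genes. PHLPP1 encodes a phosphatase that removes the hydrophobic motif phosphate from AKT, and went from 13.1 and 15.0 CPM to 4.51 and 6.38 CPM, or 38.7% of control (log2 fold change -1.37, SE 0.18, 95% interval -1.77 to -0.96, edgeR adjusted p = 0.000179). This rests on 495 and 453 counts in the controls and on 143 and 190 under sh-SOX4. The lower sh-SOX4 library and the higher one differ clearly, yet both lie far under the controls. PHLPP2, its paralogue, was at 67.7 and 62.5 CPM and then 59.4 and 57.2 CPM, with an interval of -0.30 to -0.02 and an edgeR adjusted p of 0.0699 that passed in 4 of 13 alternative settings. PHLPP1 counts were 0.193 and 0.241 of PHLPP2 counts in the controls, and 0.0759 and 0.112 with the SOX4 hairpin.

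AKT1 fell slightly and AKT2 did not pass. AKT1 was at 185 and 181 CPM in sh-Scb and 159 and 168 CPM in sh-SOX4 (log2 fold change -0.17, SE 0.047, edgeR adjusted p = 0.0165), and without sh-SOX4 replicate 1 the adjusted p became 0.162. AKT2 was at 120 and 126 CPM, then 125 and 126 CPM, with an interval of -0.08 to 0.14 (edgeR adjusted p = 0.621). The AKT1 groups did not overlap but lay close, and the ratio of AKT1 to AKT2 counts was 1.54 and 1.44 against 1.27 and 1.33. PDPK1, the kinase that phosphorylates the activation loop of AKT, was at 95.5 and 97.6 CPM and then 104 and 103 CPM (edgeR adjusted p = 0.111). Its level is uncertain, since the pseudogene PDPK2P matches 1102 of its transcript bases at 99.9% identity, with counts equal to 7.74% of those of PDPK1. GSK3A, a kinase that AKT inhibits, rose from 49.4 and 51.3 CPM to 60.7 and 66.1 CPM (log2 fold change 0.33, SE 0.067, edgeR adjusted p = 0.00254).

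**Figure D3:**
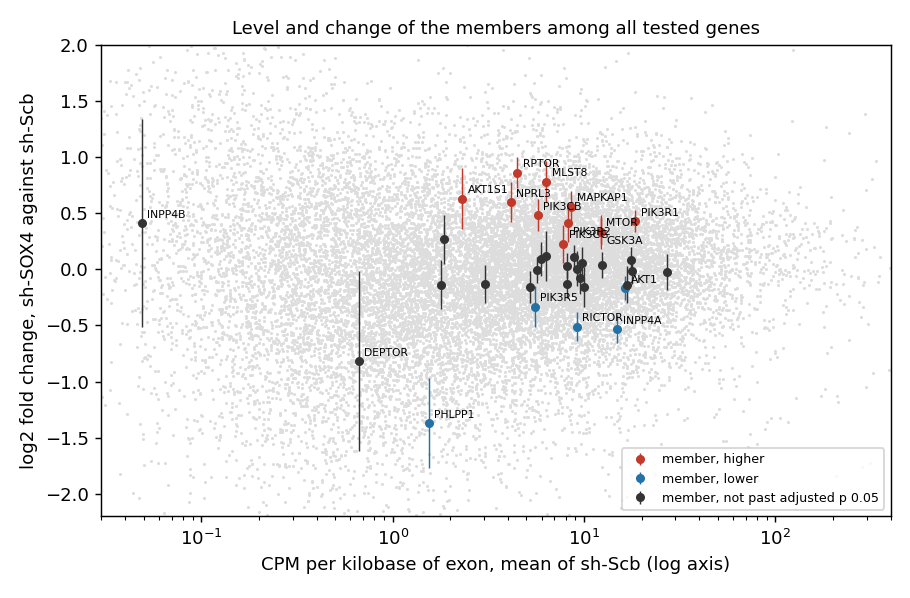
Each member is placed by its level in sh-Scb (CPM per kilobase of exon, log axis) and its log2 fold change, with the 95% interval from the model as a bar, over all tested genes in light grey; red rose, blue fell and black did not pass. PHLPP1 has the largest change (-1.37), and the widest intervals belong to INPP4B and DEPTOR, the members with the fewest counts.

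Between AKT and mTORC1, the genes of the TSC complex and its target did not pass. TSC1, TSC2 and the GTPase gene RHEB had log2 fold changes of -0.01, -0.13 and -0.14, with 95% intervals that together ran from -0.30 to 0.11. Their sh-Scb means were 100.1 ± 3.38, 59.7 ± 0.505 and 59.5 ± 4.94 CPM (SD, n = 2), and their sh-SOX4 means 99.7 ± 2.23, 54.5 ± 5.29 and 54.2 ± 2.5 CPM. TSC1 overlapped between the groups, and TSC2 and RHEB were lower in sh-SOX4 by about the spread of their libraries. Under library totals TSC2 and RHEB passed, with adjusted p-values of 0.0301 and 0.0255. RHEB is also uncertain because 2 pseudogenes, RHEBP1 and RHEBP2, match 556 and 600 of its bases at 99.1% and 98.7% identity, and RHEBP2 had counts equal to 20.3% of those of RHEB.

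The S6 kinases, which mTORC1 phosphorylates, and the RAG GTPases, which bring it to the lysosome, did not pass. The log2 fold changes were 0.04 for RPS6KB1 and -0.08 for RPS6KB2, with intervals of -0.08 to 0.16 and -0.22 to 0.07. For RRAGA, RRAGC and RRAGD they were -0.03, 0.00 and 0.08, with intervals that together ran from -0.19 to 0.20. The smallest edgeR adjusted p among these 5 genes was 0.227, for RRAGD. Per kilobase, RRAGA had the highest level of all 37 genes, at 27.3 ± 1.03 CPM per kilobase in sh-Scb and 26.8 ± 0.045 in sh-SOX4 (SD, n = 2).

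GATOR1 is the complex of DEPDC5, NPRL2 and NPRL3 that switches the RAG GTPases off when amino acids are scarce. Of its genes NPRL3 rose, from 28.0 and 26.9 CPM to 41.4 and 41.6 CPM (log2 fold change 0.60, SE 0.080, edgeR adjusted p = 0.000189). NPRL2 was at 37.1 and 36.6 CPM in sh-Scb and 32.2 and 33.9 CPM in sh-SOX4, with an interval of -0.34 to 0.02 (edgeR adjusted p = 0.14). The ratio of NPRL3 to NPRL2 counts was 0.755 and 0.735 in the controls and 1.29 and 1.23 with the SOX4 hairpin. DEPDC5 was at 33.0 and 29.3 CPM and then 27.0 and 29.8 CPM, with overlapping groups (edgeR adjusted p = 0.29). The arginine sensor gene CASTOR1 was at 17.3 and 17.4 CPM and then 18.9 and 18.7 CPM (edgeR adjusted p = 0.376). Of CASTOR1 exonic bases 46.0% are shared with AC004997.1, which had 100 to 248 counts per library, so CASTOR1 is uncertain. MPG and another gene share 13.8% of NPRL3 exonic bases, and MPG was counted 802 and 575 times in the controls and 681 and 779 times with the SOX4 hairpin.

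**Figure D4:**
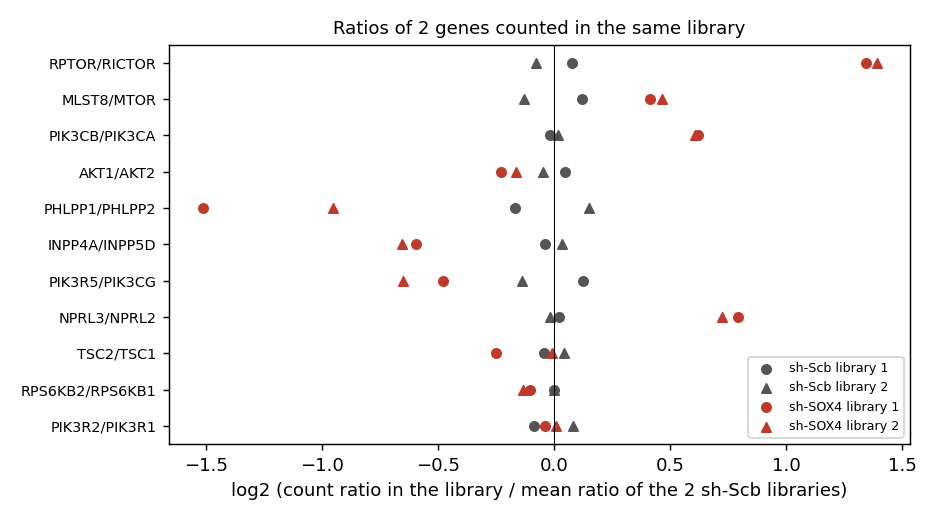
For 11 pairs of members, the ratio of their counts in each library is shown as log2 of the ratio over its sh-Scb mean, so that library scaling cancels; grey is sh-Scb, red is sh-SOX4. RPTOR to RICTOR moved furthest to the right (2.58-fold) and PHLPP1 to PHLPP2 furthest to the left (0.432-fold), while PIK3R2 to PIK3R1 stayed near 0 (0.99-fold).

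The sequences before the annotated starts are shown for the members with the largest rises and falls that have an entry in the promoter table, to let the reader set them beside each other. They come from RefSeq (GRCh38.p14), begin 250 bases before the RefSeq start, stop before the first annotated exon of GENCODE release 29, and read 5′ to 3′ on the strand of the gene. RPTOR (chr17:80544588-80544818, + strand) and NPRL3 (chr16:138861-138923, - strand) rose, and PHLPP1 (chr18:62715291-62715449, + strand) and INPP4A (chr2:98444337-98444586, + strand, the more upstream of 2 entries) fell. Capitals mark matches on either strand to the E-box CACGTG bound by MYC and its relatives, or to ACAAAG or ACAATG, short cores of the kind that SOX proteins bind.
RPTOR: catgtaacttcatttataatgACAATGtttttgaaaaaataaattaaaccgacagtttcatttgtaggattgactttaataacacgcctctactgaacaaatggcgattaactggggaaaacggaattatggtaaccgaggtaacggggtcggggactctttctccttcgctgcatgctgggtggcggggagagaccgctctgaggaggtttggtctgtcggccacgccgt
NPRL3: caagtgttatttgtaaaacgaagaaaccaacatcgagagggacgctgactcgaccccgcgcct
PHLPP1: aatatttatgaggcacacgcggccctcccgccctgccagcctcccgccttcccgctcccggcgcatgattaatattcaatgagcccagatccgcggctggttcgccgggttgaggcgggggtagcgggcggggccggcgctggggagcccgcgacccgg
INPP4A: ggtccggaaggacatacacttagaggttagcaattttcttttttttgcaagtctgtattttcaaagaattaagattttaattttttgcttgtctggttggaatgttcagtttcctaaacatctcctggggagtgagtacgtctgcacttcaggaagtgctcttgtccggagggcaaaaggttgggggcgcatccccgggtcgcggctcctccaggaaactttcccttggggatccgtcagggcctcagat
The single match to the searched motifs in these 4 stretches is an ACAATG in RPTOR. Cores with another first base were not searched, marked or counted. The INPP4A stretch holds tcaaag and the PHLPP1 stretch tcaatg, which differ from ACAAAG and ACAATG in the first base only. The marked letters therefore do not set RPTOR apart from these fallen genes. Over the 250 bases before the start, ACAATG occurred in 9.29% of all 35116 entries and in 3 of 55 entries of the members, which covered 32 of the 37 genes. ACAAAG occurred in 13.7% of all entries and 11 of 55, and CACGTG in 6.34% and 3 of 55. The members with CACGTG were INPP4B, RRAGC and TSC2, none of which passed the test. A match is a description of the letters and not a binding site.

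The other genes of the pathway were read from 6 lists of 95 genes, of which 91 were tested. Of these 29 rose and 22 fell, or 56.0%, beside the 44.1% of all tested IDs. At the expression range used above for the members, 38 of 64 of them (59.4%) were called, beside 63.1% of IDs, so their share is not above that of genes at similar levels. The balance depends on the scaling, since with library totals 23 rose and 30 fell. Under that scaling 44.7% of all tested IDs were called, and 40.8% of those calls were higher. Among 15 tested genes of receptors and adaptors upstream of PI3K, 3 rose and 7 fell (66.7% called). Within the same expression range 8 of 9 were called (88.9%), a higher share than that of IDs there, in a short list. IGF1R, the IGF receptor, fell by 1.31 (SE 0.080), the docking protein gene GAB2 fell by 1.21 (SE 0.10), and PIK3IP1, a membrane inhibitor of PI3K, fell by 1.48 (SE 0.15) on the log2 scale. The T cell costimulatory receptor CD28 rose by 0.63 (SE 0.053), the adaptor GRB2 by 0.44 (SE 0.045) and PIK3AP1, an adaptor that binds p85, by 0.90 (SE 0.099). The IGF1R and CD28 groups were far apart, with IGF1R at 71.6 and 68.9 CPM against 26.4 and 30.2 CPM, and CD28 at 161 and 150 CPM against 249 and 233 CPM.

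Of 16 other PI3K and phosphoinositide genes, 2 rose and 7 fell, with a median log2 fold change of -0.20. This is 56.2% called, beside 44.1% of all tested IDs. Within the expression range used for the members 7 of 12 were called (58.3%), beside 63.1% of IDs there. INPPL1, which encodes the SHIP1 relative SHIP2, fell by 0.64 (SE 0.070), and PLEKHA1 and PLEKHA2, which encode proteins that bind PI(3,4)P2, fell by 0.96 (SE 0.066) and 0.44 (SE 0.049). SYNJ2 rose by 0.36 (SE 0.049), and PIK3C2B, a class II PI3K, by 0.23 (SE 0.057), a call lost under library totals (adjusted p = 0.0832) and without sh-SOX4 replicate 2 (adjusted p = 0.0605). Of 11 further AKT family and substrate genes 4 rose and 1 fell (45.5% called). In the same expression range 2 of 6 were called (33.3%), a lower share than the 63.1% of IDs there. PPP2CA, a catalytic subunit of the phosphatase PP2A, rose by 0.51 (SE 0.041), PPP2R5C by 0.26 (SE 0.042) and the pro-apoptotic BAD by 0.52 (SE 0.11). GSK3B fell by 0.15 (SE 0.044), opposite to GSK3A, and its adjusted p of 0.0218 rose to between 0.0502 and 0.123 on leaving out sh-Scb replicate 1 or either sh-SOX4 library. Of 12 tested regulators of TSC and mTORC subunits 2 rose and 2 fell (33.3% called). In the same expression range 2 of 9 were called (22.2%), also a lower share than that of IDs there. PRKAG1 of AMPK rose by 0.42 (SE 0.056) and TTI2 by 0.34 (SE 0.089). The log2 fold change was -0.55 (SE 0.17) for RHEBL1 and -0.15 (SE 0.045) for PRKAB1. The calls of TTI2, RHEBL1 and PRKAB1 were each lost on leaving out at least 1 library, TTI2 without sh-Scb replicate 2 (adjusted p = 0.0566), RHEBL1 without sh-Scb replicate 2 (0.0585) or sh-SOX4 replicate 1 (0.126), and PRKAB1 without sh-Scb replicate 1 (0.0997) or either sh-SOX4 library (0.0915 and 0.0879).

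Among 23 genes of lysosomal amino acid sensing, 12 rose and 2 fell (60.9% called), with a median of 0.26. Within the same expression range 13 of 21 were called (61.9%), close to the 63.1% of IDs there. LAMTOR1 and LAMTOR3, subunits of the Ragulator complex that anchors the RAG GTPases, rose by 0.76 (SE 0.081) and 0.66 (SE 0.094), and SEH1L of GATOR2 rose by 0.46 (SE 0.052). SESN3, which encodes a sestrin, fell from 42.6 and 49.4 CPM to 20.2 and 17.6 CPM (log2 fold change -1.28, SE 0.11, edgeR adjusted p = 8.19e-06). Of 14 genes listed as mTORC1 effectors 6 rose and 3 fell (64.3% called). Only 7 of these lie in the expression range, and 6 of the 7 were called (85.7%), beside 63.1% of IDs there. The list holds RPS6KA1, whose product RSK1 is a kinase activated by ERK and PDPK1 and not an mTORC1 effector, and without it 5 of 13 rose. LARP1, a repressor of ribosomal protein mRNA translation that mTORC1 controls, rose from 237 and 241 CPM to 414 and 416 CPM (log2 fold change 0.79, SE 0.040, edgeR adjusted p = 3.28e-07). The cap-binding factor EIF4E rose by 0.45 (SE 0.049) and RPS6KA1 by 0.46 (SE 0.062), while the autophagy kinase ULK1 fell by 0.59 (SE 0.0695), PDCD4 by 0.52 (SE 0.074) and LPIN1 by 0.31 (SE 0.052) on the log2 scale. The largest edgeR adjusted p among the genes named from these 6 lists was 0.0218, for GSK3B.

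**Figure D5:**
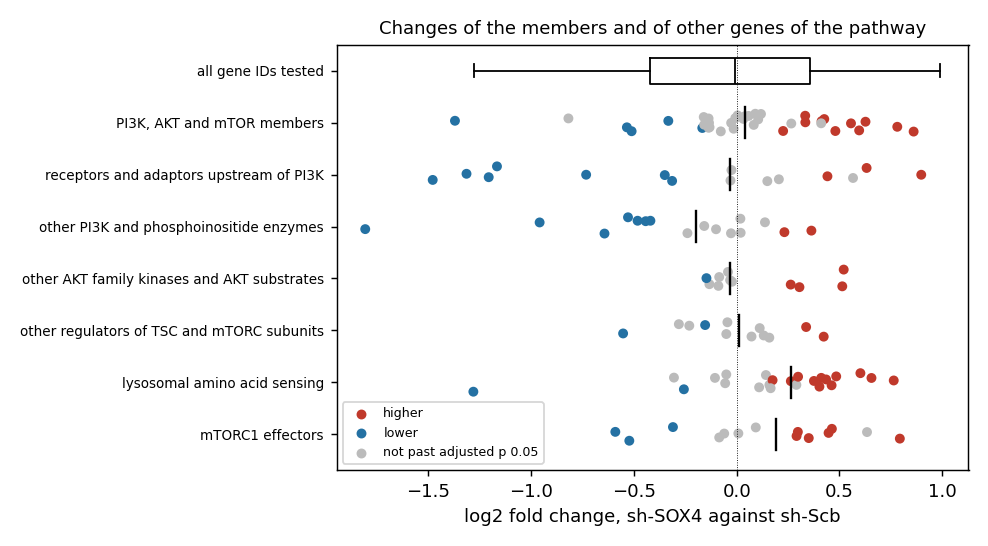
Log2 fold changes of the members and of the 6 lists of other pathway genes, a point per gene, red where it rose, blue where it fell and grey where it did not pass; black bars are medians, and the box for all tested IDs shows the quartiles with whiskers at the 5th and 95th percentiles. The median is 0.04 for the members, 0.26 for lysosomal amino acid sensing and -0.20 for other PI3K and phosphoinositide enzymes.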

How the data were processed

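The authors deposited whole-number counts per Ensembl gene ID for 4 libraries, not normalized. HISAT2 2.2.0, StringTie and hg38 are named in the submitters' processing notes. Their roles, the annotation release and strand use, not given in the sources used here, decide which reads overlapping genes receive. TRIzol extraction and a TruSeq kit were used, per the labels' protocols. The control columns are named NC and were taken as sh-Scb, because the other columns name SOX4. Library totals were 29093287 to 36636219 counts.

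Low counts were removed by filterByExpr (edgeR 4.0.16, R 4.3.3) with a minimum count of 10 and a minimum total of 15. TMM factors scaled the rest, and the robust quasi-likelihood model was fitted to the 2 groups (2 residual degrees of freedom per gene). SEs are log2 fold changes divided by the square root of F, and 95% intervals come from the same fit. Libraries of a group differed by more than sampling noise (median chi-square per gene 1.70 and 1.59, against 0.455 for sampling). Each library was counted as a sample. Such a difference can be technical, so it does not show that the libraries came from separate cultures. Positions, exon lengths and overlaps came from GENCODE release 29, and near copies from BLAST at 90% identity over 300 bases. SAMTOR was not matched. The fit was tested on simulated counts.

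The members, lists and naming rule were chosen with earlier results of these data known. The expression range used for the second background was set after levels were seen. Every member is named, and of each other list the 3 smallest adjusted p-values in each direction, except that some genes are not reported here. The 13 other settings were DESeq2 1.42.0, size factors by median ratio, library totals, a filter of at least 10 CPM in 2 libraries, no filter, limma-voom 3.58.1, a test against 1.2-fold, a replicate block, thinning to the smallest library, and leaving out each library. Figures were drawn with matplotlib 3.10.9.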

Additional observations from a re-analysis of the deposited data

How the results depend on the processing

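Over 13 alternative settings the number of members called stayed between 11 and 20. The test against 1.2-fold called 11 (29.7%, beside 26.9% of IDs tested), and DESeq2 called 15 (40.5%, beside 37.5%). Library totals, and at least 10 CPM in 2 libraries, each called 20, with 10 higher and 10 lower. These were 54.1% of members beside 44.7% of IDs under library totals. Under the 10 CPM filter they were 57.1% of 35 members beside 66.2% of IDs, a lower share than that of IDs. With library totals the median log2 fold change over tested IDs went from -0.01 to -0.109, and the share of calls that were higher from 52.5% to 40.8%. Of the 16 called members, 11 kept their call and direction in every setting; the others were PIK3CG, AKT1, PIK3R5, GSK3A and MTOR, and the last 3 were lost only against 1.2-fold. That test called 5348 IDs in place of 8775, and 30 other pathway genes in place of 51, by its construction. The replicate numbers did not pair the libraries (correlation of deviations -0.0103); with the replicate block 16 members and 8378 IDs were called. Leaving out 1 library, with the lone sample of a group assumed to vary like the other group, gave 15 to 18 members. SOX4 stayed lower in all settings.

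Changes of sign were seen only in members that did not pass, and their cause was not tested. Under library totals log2 fold changes were -0.0406 for PIK3CD, -0.00825 for INPP5D, -0.0662 for AKT2, -0.0588 for RPS6KB1, -0.0942 for RRAGC and -0.0158 for RRAGD. With at least 10 CPM in 2 libraries they were -0.00498 for PIK3CD, -0.0306 for AKT2, -0.0232 for RPS6KB1 and -0.0585 for RRAGC. Leaving out each library in turn gave -0.065 to 0.038 for PIK3R3, -0.0449 to 0.0314 for TSC1, -0.0689 to 0.0157 for RRAGA and -0.0347 to 0.0458 for RRAGC. INPP4B and DEPTOR have too few counts for a change of their size to be read.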
